A study of Rattus norvegicus with 6 samples.

Results

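A set of 6 genes for plasminogen activators and other serine proteases that act at or near the cell surface were examined in rat oral soft tissue, on expression arrays. They are Plau, Plat, Plaur, Prss23, Htra1 and St14, and all 6 were found among the 14217 genes with a probe set named for that gene alone. Together they have 8 of the 31042 probe sets that are not array controls. Each gene is represented by its brightest probe set, taken by the mean of the 6 arrays, and the other 2 probe sets are given beside it. The genes were chosen by their function with their signal differences in this same comparison of tissues already known, so those differences are given as a description, without a test. The peri-implant soft tissue came from the left upper jaw of male Sprague Dawley rats, where a titanium alloy implant had been placed in the socket of an extracted first molar. The oral mucosal tissue came from the right side, where the first molar had also been extracted and the socket had healed with no implant. The rats were 4 weeks old at surgery, tissue was collected 4 weeks later, and each group held 3 arrays. The right side is thus mucosa healed after extraction and not intact gingiva, and the implant and the side of the mouth cannot be told apart. The labels do not tie the samples to individual rats, so every p-value below measures only how these 6 samples vary, and that variation may be technical.

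The plasminogen system turns the plasma protein plasminogen into plasmin, a protease that dissolves fibrin and cleaves matrix proteins. Urokinase (Plau) does this at the cell surface while bound to its receptor (Plaur), and tissue plasminogen activator (Plat) does it mainly on fibrin. Matriptase (St14) is anchored in the membrane of epithelial cells, while Htra1 and Prss23 are secreted. In skin and oral mucosa, keratinocytes at a wound edge are known to make urokinase and its receptor, and mice without plasminogen heal skin wounds slowly.

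RefSeq sequence around the start of the gene was matched by symbol for 3 of the 6 genes, in build GRCr8, from 250 bases before the start to 50 after it. All 3 windows, of Plau, Plaur and Htra1, are shown. Capitals mark matches on either strand to an AP-1 motif (TGANTCA), a GC box (GGGCGG) or a TATA box (TATAAA), none of which overlap here. The Plau window is chr15:3511938-3512237 on the minus strand, the Plaur window chr1:89181113-89181412 on the plus strand, and the Htra1 window chr1:194927819-194928118 on the plus strand.
Plau: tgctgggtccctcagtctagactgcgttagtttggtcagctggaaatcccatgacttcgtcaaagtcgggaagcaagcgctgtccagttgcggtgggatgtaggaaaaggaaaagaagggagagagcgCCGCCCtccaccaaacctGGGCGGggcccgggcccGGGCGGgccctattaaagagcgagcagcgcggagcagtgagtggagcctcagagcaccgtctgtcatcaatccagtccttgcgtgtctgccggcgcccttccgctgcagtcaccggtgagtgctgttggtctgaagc
Plaur: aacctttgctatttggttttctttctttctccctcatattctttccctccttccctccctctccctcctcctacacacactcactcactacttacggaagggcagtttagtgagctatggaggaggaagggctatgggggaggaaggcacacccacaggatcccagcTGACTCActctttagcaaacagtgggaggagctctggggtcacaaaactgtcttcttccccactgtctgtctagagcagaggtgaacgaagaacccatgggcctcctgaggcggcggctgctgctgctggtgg
Htra1: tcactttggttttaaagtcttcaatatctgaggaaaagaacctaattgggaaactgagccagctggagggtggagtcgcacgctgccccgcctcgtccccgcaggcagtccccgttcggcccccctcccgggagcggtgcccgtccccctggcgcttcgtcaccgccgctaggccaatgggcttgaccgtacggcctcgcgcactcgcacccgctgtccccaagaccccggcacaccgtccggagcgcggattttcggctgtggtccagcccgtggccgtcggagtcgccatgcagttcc
The Plau window held 3 GC boxes, a motif found in 33.1% of 33469 rat promoter windows of the same length. The Plaur window held 1 AP-1 match, at bases -83 to -77 relative to the start, a motif found in 7.33% of the windows. Neither of these motifs, nor the TATA box found in 14.2% of windows, was matched in the Htra1 window. GC content was 61.0% for Plau, 54.0% for Plaur and 65.7% for Htra1, against a median of 51.7% over all windows, and the windows held 20, 4 and 30 CpG dinucleotides against a median of 7. These matches describe letters only, and no factor binding was measured.

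The 6 genes did not differ in 1 direction. Prss23 and Htra1 were lower in peri-implant soft tissue by 4.00 and 1.53 on the log2 scale, Plat and St14 were higher by 2.43 and 0.62, and Plau and Plaur differed by -0.09 and 0.14. The arrays of the 2 groups did not overlap for 4 of the 6 genes, 2 higher and 2 lower, a condition met by 41.9% of the 10585 genes past a filter on low signals, 24% higher and 17.9% lower. In the limma fit 4 of the 6 lay past an adjusted p of 0.05, 2 higher and 2 lower, as did 26.1% of those genes, 15.2% higher and 11% lower. Nothing is read from these shares, since this comparison helped to choose the genes. The median difference over all 10585 genes was 0.03. All 6 genes passed the filter, and all signals of their main probe sets lay above 5.90 on the log2 scale, the floor below which a signal is called dim here.

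**Figure D1:**
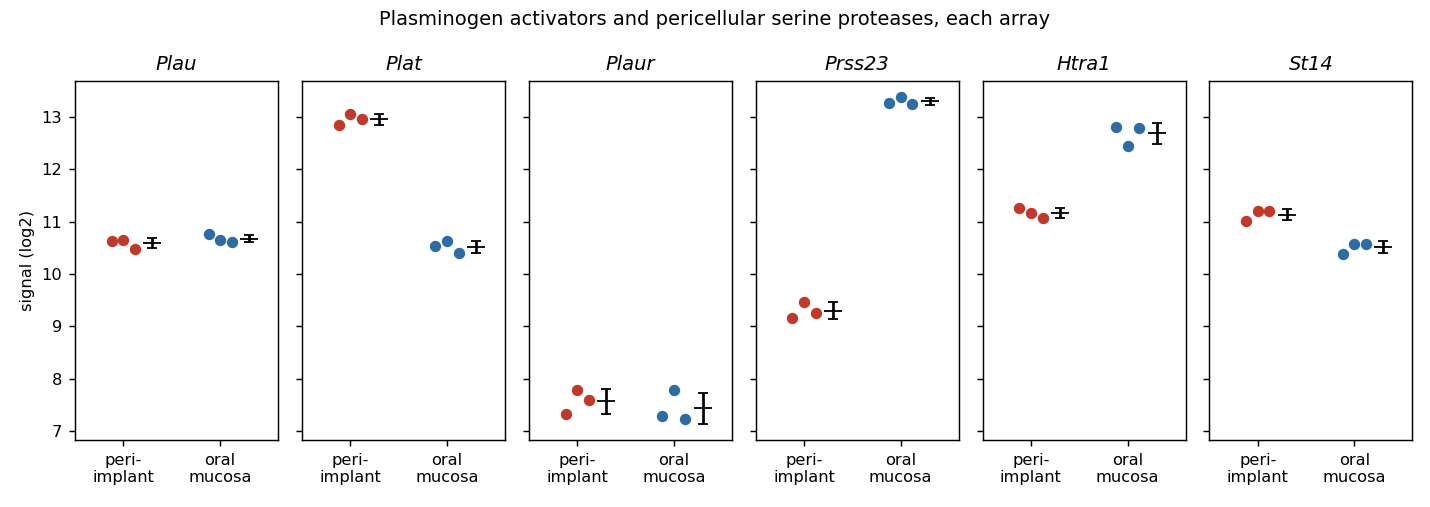
Signal of each gene on every array (log2, vertical axis), with peri-implant soft tissue in red on the left of each panel and oral mucosal tissue in blue on the right. Points are single arrays, and the black bar beside them is the mean ± SD of 3 arrays. The groups overlap for Plau and Plaur and stand apart for the other 4 genes, most widely for Prss23.

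Among the activators, Plat differed between the tissues and Plau did not do so beyond the spread of the arrays. Plat, tissue plasminogen activator, stood at 12.85, 13.06 and 12.95 on the peri-implant arrays, against 10.53, 10.63 and 10.40 on the mucosal arrays. Every peri-implant array lay above every mucosal array. The means were 12.95 ± 0.10 in peri-implant tissue and 10.52 ± 0.11 in mucosa (SD, n = 3 each), a difference of 2.43 (SE 0.08), or 5.41-fold higher. Among the 10585 genes Plat had rank 95 from the highest difference. Plau, urokinase, stood at 10.63, 10.65 and 10.48 in peri-implant tissue, against 10.76, 10.65 and 10.62 in mucosa. These ranges overlapped, and the means were 10.59 ± 0.09 in peri-implant tissue and 10.68 ± 0.07 in mucosa, a difference of -0.09 (SE 0.08). A second Plau probe set, of lower signal, gave 8.09 ± 0.18 in peri-implant tissue and 8.18 ± 0.24 in mucosa, again a difference of -0.09 (SE 0.18). Both probe sets of Plau thus gave overlapping groups and the same small difference, while the single probe set of Plat separated them.

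Plaur, the membrane-bound receptor that holds urokinase at the cell surface, had the lowest precision of the 6 genes. Its main probe set stood at 7.32, 7.79 and 7.60 in peri-implant tissue, against 7.29, 7.78 and 7.24 in mucosa. The highest mucosal array lay close to the highest peri-implant array, and the others lay below all peri-implant arrays. The difference of the means, 7.57 ± 0.24 in peri-implant tissue and 7.44 ± 0.30 in mucosa, was 0.14 (SE 0.23). The suffix of this probe set's name, _s_at, marks probes shared by several transcripts in the array maker's scheme. The other Plaur probe set was dim in both, at 4.62 ± 0.46 in peri-implant tissue and 4.22 ± 1.14 in mucosa, and did not pass the filter. A change of Plaur within the width of these errors could therefore not have been seen.

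Prss23, a secreted serine protease, showed the widest separation of the 6 genes. It stood at 9.16, 9.47 and 9.26 on the peri-implant arrays, against 13.26, 13.37 and 13.25 on the mucosal arrays. The mucosal arrays lay close together and all peri-implant arrays lay far below them. The means were 9.30 ± 0.16 in peri-implant tissue and 13.30 ± 0.07 in mucosa, a difference of -4.00 (SE 0.09), or 15.96-fold lower. Over the 10585 genes this was the third lowest difference. Prss23 was still above the dim floor in peri-implant tissue, so its signal there was lower but still measured.

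Htra1 encodes a secreted protease that cleaves fibronectin and proteoglycans such as decorin and dampens TGF-β signalling. Its signals were 11.25, 11.16 and 11.06 in peri-implant tissue, against 12.81, 12.45 and 12.80 in mucosa. No peri-implant array reached the lowest mucosal array. The means were 11.16 ± 0.10 in peri-implant tissue and 12.68 ± 0.21 in mucosa, a difference of -1.53 (SE 0.10), or 2.88-fold lower, which placed Htra1 at rank 80 from the lowest difference.

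St14, matriptase, activates the protease prostasin (Prss8) and hepatocyte growth factor and is needed for the skin barrier in mice. Its signals were 11.02, 11.20 and 11.20 in peri-implant tissue, against 10.38, 10.58 and 10.58 in mucosa. The groups did not overlap, though they were closer than for Plat, Prss23 or Htra1. The means of 11.14 ± 0.10 in peri-implant tissue and 10.51 ± 0.11 in mucosa differed by 0.62 (SE 0.09), or 1.54-fold higher. St14 had rank 1138 from the highest difference.

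Genes that work with the activators mostly fell where they passed the test, and a few rose. A list of 30 plasminogen system genes, which includes Plau, Plat and Plaur, had 27 on the array. Of the other 24, 13 lay below the filter and were not tested, among them Plg, the plasminogen gene, which liver supplies, at 4.99 ± 0.50 in peri-implant tissue against 4.41 ± 0.88 in mucosa. Of the 11 tested, 7 fell, 2 rose and 2 did not pass, or 81.8% called against 26.1% of all genes, with a median difference of -0.42 against 0.03 over all genes. Of all genes 11% were lower and 15.2% higher. Without the variance trend 6 passed, 4 lower and 2 higher, and the same counts held without peri-implant array 1. All 4 gene lists used here were chosen with earlier results of these data known, so their shares are given as a description.

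Serpinb2 and Serpine2, serpins that block both activators, fell. Serpinb2, plasminogen activator inhibitor type 2, which keratinocytes make, stood at 13.88 ± 0.09 in peri-implant tissue against 14.76 ± 0.11 in mucosa and fell by 0.88 (SE 0.09, limma adjusted p = 1.06e-05). Serpine2, protease nexin-1, which also blocks thrombin, stood at 8.75 ± 0.21 in peri-implant tissue against 9.37 ± 0.26 in mucosa and fell by 0.61 (SE 0.15, limma adjusted p = 0.0109). The Serpine2 call was lost without peri-implant array 1 (limma adjusted p = 0.0502) and without the variance trend (limma adjusted p = 0.0685), and its alternatives ran from 0.00280 to 0.0685. In contrast Serping1, the C1 inhibitor, which acts on complement and contact system proteases, rose by 3.48 (SE 0.15), at 10.32 ± 0.07 in peri-implant tissue against 6.83 ± 0.25 in mucosa (limma adjusted p = 4.08e-09).

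Of genes for the surface binding and clearance of the activators, 2 are described here that fell and 1 that did not pass, and the anticoagulant cofactor Thbd rose. S100a10, which with annexin A2 binds plasminogen and tissue plasminogen activator, stood at 14.83 ± 0.13 in peri-implant tissue against 15.25 ± 0.20 in mucosa and fell by 0.42 (limma adjusted p = 0.0182). That call was lost in 5 of 15 alternatives, including those without peri-implant array 1, peri-implant array 2, mucosal array 2 or mucosal array 3 (limma adjusted p = 0.0895, 0.0890, 0.0517 and 0.0564), with a range of 8.95e-05 to 0.0941. Anxa2, annexin A2, stood at 15.35 ± 0.20 in peri-implant tissue against 15.53 ± 0.26 in mucosa (limma adjusted p = 0.426), and a second, much weaker probe set differed by 0.53 the other way (limma adjusted p = 0.237). The signal of Anxa2 lay 1.06 and 1.19 below the highest signal of the peri-implant and mucosal arrays, so a ceiling cannot be told apart from a true level there. Vldlr, an endocytic receptor that clears complexes of urokinase with its inhibitors, fell by 1.03 (SE 0.14), at 9.30 ± 0.18 in peri-implant tissue against 10.32 ± 0.28 in mucosa (limma adjusted p = 1.19e-04). Its 3 other probe sets fell as well, by 0.65, 1.20 and 1.22. Thbd, thrombomodulin, a cofactor that turns thrombin towards anticoagulation, rose by 1.10, at 10.62 ± 0.03 in peri-implant tissue against 9.53 ± 0.06 in mucosa (limma adjusted p = 7.02e-07). With the mean of the Thbd probe sets the difference was 0.38 and did not pass (limma adjusted p = 0.406, its alternatives running from 1.66e-07 to 0.406). Of its other probe sets, 1 was dim and 1 differed by 0.38 with overlapping groups.

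**Figure D2:**
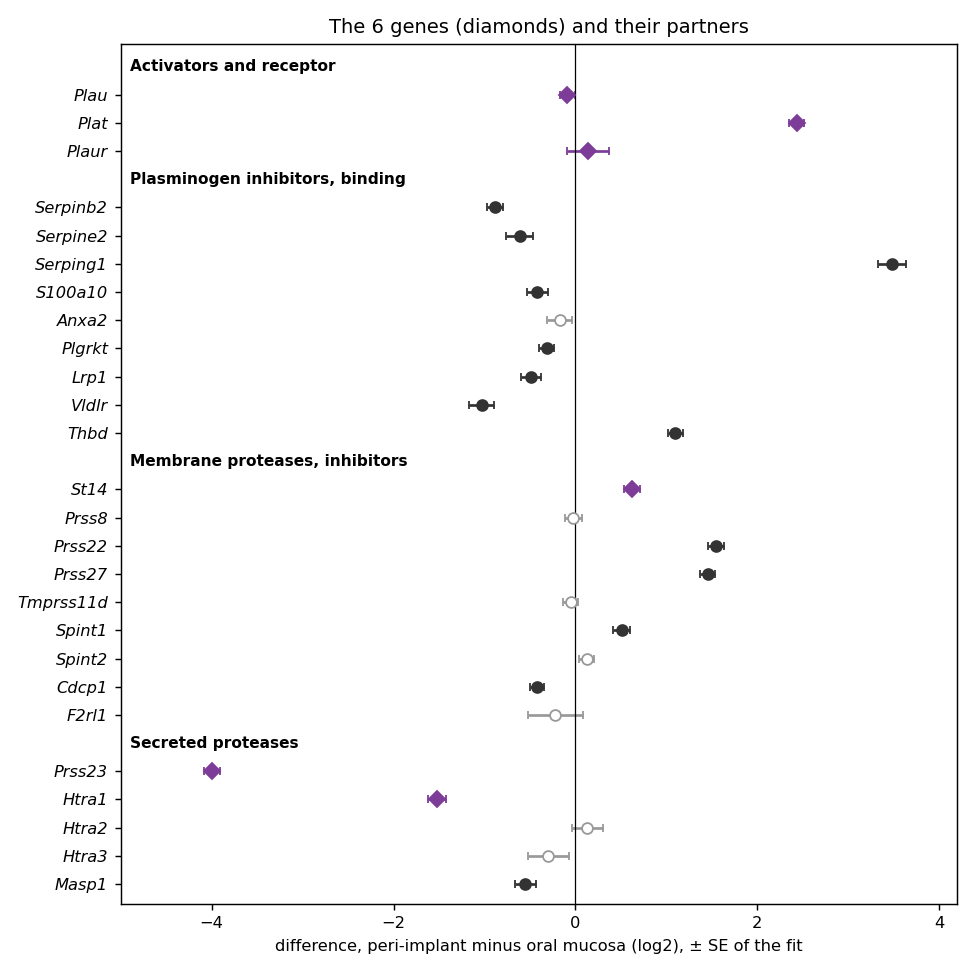
Difference between the tissues on the log2 scale (horizontal axis, peri-implant minus oral mucosa) with the SE of the limma fit, for the 6 genes (purple diamonds) and their partners (circles, filled where the adjusted p was under 0.05). Plat at 2.43 lies beside Plau and Plaur near 0. Prss23 at -4.00 and Htra1 at -1.53 lie to the left of the other genes shown under secreted proteases, of which Htra2 is mitochondrial.

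Around matriptase, a pair of related proteases and the inhibitor Spint1 rose. The list of 28 membrane-anchored serine proteases, their inhibitors and targets had 16 genes on the array, of which 15 are not St14. Of these 15, 6 were below the filter. Of the 9 tested, 4 rose, 1 fell and 4 did not pass, or 55.6% called against 26.1% of all genes, with a median difference of 0.12 against 0.03 over all genes. Of all genes 15.2% were higher and 11% lower. Prss22, tryptase epsilon, whose human form is known to activate the urokinase precursor, rose by 1.55 (SE 0.09), at 11.65 ± 0.05 in peri-implant tissue against 10.10 ± 0.15 in mucosa (limma adjusted p = 4.63e-08). Prss27, marapsin, a serine protease of squamous epithelium, rose by 1.45 (SE 0.08), at 10.98 ± 0.05 in peri-implant tissue against 9.53 ± 0.03 in mucosa (limma adjusted p = 3.47e-08). Both changes were larger than that of St14 itself.

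Spint1, the membrane-bound inhibitor that holds matriptase in check, rose by 0.51 (SE 0.10), at 11.48 ± 0.17 in peri-implant tissue against 10.97 ± 0.11 in mucosa (limma adjusted p = 0.00167). Spint2, the second such inhibitor, stood at 13.13 ± 0.08 in peri-implant tissue against 13.01 ± 0.11 in mucosa (limma adjusted p = 0.325), a difference of 0.12 that became 0.22 and passed under quantile normalization (limma adjusted p = 0.0175, its alternatives running from 0.0175 to 0.658). Prss8, prostasin, the substrate of matriptase in epithelium, stood at 10.03 ± 0.11 in peri-implant tissue against 10.06 ± 0.09 in mucosa, with overlapping groups and a difference of -0.02 (SE 0.09). A pair of surface proteins that matriptase cleaves moved in opposite directions. Epcam, an epithelial adhesion molecule, rose by 0.42 (limma adjusted p = 0.00124), and Cdcp1 fell by 0.42 (limma adjusted p = 0.00142). A second Cdcp1 probe set differed by -0.29 with overlapping groups and did not pass (limma adjusted p = 0.0924). F2rl1, the protease-activated receptor PAR2, was weak in both tissues, at 6.50 ± 0.18 in peri-implant tissue against 6.72 ± 0.31 in mucosa (limma adjusted p = 0.659). Hgf, the growth factor that matriptase activates, was dim in both, at 3.17 ± 0.04 in peri-implant tissue against 2.53 ± 1.27 in mucosa, and gives no comparison.

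The other genes listed with Htra1 and Prss23, most of them not close relatives, did not show differences of that size where they could be tested. The list of HtrA and other serine proteases and convertases, not all of them secreted, held 17 genes. Of these 14 were on the array, 12 of them other than Htra1 and Prss23, and 2 of the 12, Prss35 and Dpp4, were below the filter. Prss35 was dim in both tissues, at 2.24 ± 1.53 in peri-implant tissue against 4.34 ± 1.29 in mucosa, and gives no comparison. Of the 10 tested, 1 fell, 0 rose and 9 did not pass in limma, or 10% called against 26.1% of all genes, and at an unadjusted p under 0.05 the count was also 1. The differences of the 10 ran from -0.55 to 0.39, with a median of 0.19. The gene that fell was Masp1, a protease of the lectin pathway of complement, at 8.86 ± 0.16 in peri-implant tissue against 9.41 ± 0.06 in mucosa, by 0.55 (limma adjusted p = 0.00473). With the mean of its probe sets Masp1 differed by -0.80 and no longer passed (limma adjusted p = 0.221, its alternatives running from 0.00232 to 0.221). Htra3, a secreted relative of Htra1, stood at 7.37 ± 0.05 in peri-implant tissue against 7.67 ± 0.36 in mucosa, a difference of -0.30 (SE 0.23, limma adjusted p = 0.403), and another of its probe sets differed by 0.96 (limma adjusted p = 0.394). That probe set was dim in mucosa, at 5.73 ± 2.01, with mucosal array 3 at 3.45. With values raised to the floor its difference became 0.15. Htra2, the mitochondrial member of the family, differed by 0.13 (SE 0.17, limma adjusted p = 0.648).

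Transcripts of proteins known to be cut or released by these proteases changed in both directions. Of 29 listed substrates 27 were on the array and 23 were tested, with 7 higher, 8 lower and 8 not past the threshold, or 65.2% called against 26.1% of all genes, and a median difference of -0.09 against 0.03. Mmp13, collagenase-3, whose precursor plasmin can activate, fell by 3.47 (SE 0.12), at 8.16 ± 0.17 in peri-implant tissue against 11.63 ± 0.18 in mucosa (limma adjusted p = 2.85e-10). Lama3, a chain of the epithelial laminin-332, fell by 1.24 (limma adjusted p = 6.02e-07). Bdnf, whose precursor plasmin cleaves, fell by 1.21 (limma adjusted p = 3.54e-05), and it did not pass with the mean of its 2 probe sets (limma adjusted p = 0.0626, its alternatives running from 9.38e-06 to 0.0626). Fmod, fibromodulin, a proteoglycan of collagen fibrils, rose by 1.81 (SE 0.19), at 9.51 ± 0.13 in peri-implant tissue against 7.70 ± 0.42 in mucosa (limma adjusted p = 1.49e-05).

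Of 3 matrix genes of this list described here, 2 rose and 1 did not pass. Fn1, fibronectin, rose by 0.35 (limma adjusted p = 0.00681), and Dcn, decorin, rose by 0.34 (limma adjusted p = 0.00517). Without the variance trend neither call held (limma adjusted p = 0.0510 and 0.0638), and for Fn1 the call was also lost with each array centred on its median (limma adjusted p = 0.0578). The adjusted p ran from 0.00422 to 0.0578 for Fn1 and from 0.00240 to 0.0638 for Dcn over their alternatives. Bgn, biglycan, stood at 9.43 ± 0.35 in peri-implant tissue against 9.43 ± 0.33 in mucosa (limma adjusted p = 1.00). Fn1, Dcn, Bgn, Cdcp1, Htra2 and Prss35 were picked for mention with their values in view.

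**Figure D3:**
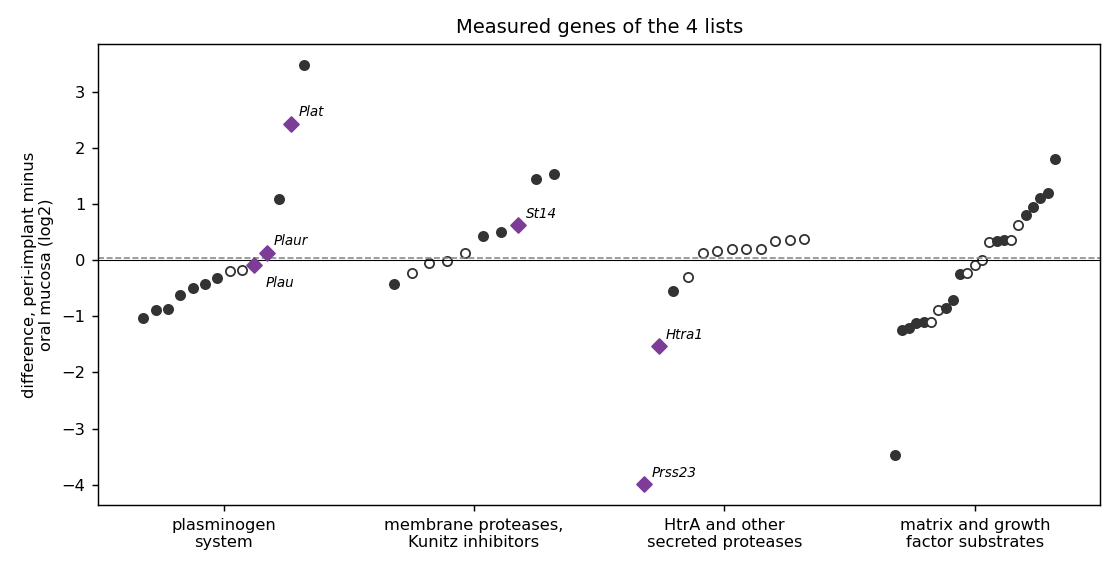
Difference between the tissues (log2, vertical axis, peri-implant minus oral mucosa) for every tested gene of the 4 lists, in order of size within each list. Filled circles passed an adjusted p of 0.05, open circles did not, purple diamonds are the 6 genes, and the dashed line is the median of all genes at 0.03. In the list of HtrA and other secreted proteases, not all of which are secreted, Prss23 and Htra1 lie below all 10 other tested genes.

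Markers of several cell types moved with the tissue, and in such bulk samples fewer cells of a type and less RNA per cell cannot be told apart. Keratinocyte markers, among them Krt13 and Krt14, were bright on all arrays, which fits the labelled oral mucosa, with summed linear signals of 210179.9 to 277587 in peri-implant tissue and 183591 to 242442 in mucosa. Of these 8 markers 4 were higher and 1 was lower, and the differences ran from -0.50 to 3.65. Krt15 and Krt4, at 3.65 and 3.12, set the top of that range, and the other keratinocyte markers reached only 0.42, in Epcam. The 0.62 of St14, an epithelial gene, lay above those others and below Krt15 and Krt4. All 7 fibroblast markers passed the test, 6 lower, among them Col3a1 and Col1a2, and 1 higher, with sums of 39251 to 41036 in peri-implant tissue against 63345 to 69516 in mucosa. Their differences ran from -1.12 to 0.34, and those of Prss23 and Htra1 lay below all 7. Pdgfrb, at the low end of that range, differed by -0.20 and did not pass with the mean of its probe sets (limma adjusted p = 0.750), and Dcn, the 1 that was higher, did not pass without the variance trend. Endothelial markers had sums of 965 to 1060.4 in peri-implant tissue against 600.3 to 785 in mucosa, with 1 of 5 higher, 0 lower and 3 at an unadjusted p under 0.05 in limma, and a range of 0.32 to 0.94. The 1 that passed, Kdr, a receptor of vascular endothelial growth factor, did not pass without peri-implant array 1, 2 or 3 or without mucosal array 2 or 3 (limma adjusted p = 0.0626, 0.0908, 0.112, 0.0608 and 0.0832), nor with the mean of its probe sets, where it differed by 0.14 (limma adjusted p = 0.869). The 2.43 of Plat, an activator that endothelium is known to release, lay above all 5. It also lay above the fibroblast markers and the tested macrophage and monocyte markers, which reached 1.99. It lay within the range of the keratinocyte markers, where only Krt15 and Krt4 lay above it. The same held for the neutrophil markers (-0.10 to 2.77), where only S100a9 lay above it. The tested T cell markers ran from 1.71 to 3.53, but that top value is Cd3e, which was dim in mucosa. With values raised to the floor Cd3e differed by 1.55, and the next highest T cell marker, Cd3g, differed by 2.30, below Plat.

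Leukocyte markers, which bear on Plaur and Plau because myeloid cells are known to make both, were higher in the peri-implant tissue. The 7 macrophage and monocyte markers tested differed by 0.79 to 1.99, with sums of 26580.0 to 28625 in peri-implant tissue against 10371 to 10887 in mucosa. Of the 7, Mpeg1 differed by 1.69, and averaged over its probe sets by 0.24, which did not pass (limma adjusted p = 0.732). Adgre1, at 7.27 in peri-implant tissue, was dim in mucosa, at 5.60. It passed the filter only through the peri-implant arrays, so no count of calls is given for this list. Of 4 neutrophil markers 3 rose and 1 did not pass, with sums of 118214 to 160767 in peri-implant tissue against 26275 to 28777 in mucosa, though S100a9 and S100a8, which make up most of that sum, are also made by keratinocytes. T cell markers had sums of 1003 to 1083 in peri-implant tissue against 183.0 to 224.9 in mucosa. Of these 5 markers 3 were dim in mucosa, and Cd3e and Cd5 passed the filter only through the peri-implant arrays, so no count of calls is given. Bone markers had overlapping sums, 4452 to 4476 in peri-implant tissue against 4369 to 4975 in mucosa, while single markers differed in both directions. Ibsp, bone sialoprotein, fell by 1.49 (limma adjusted p = 5.64e-05) and Ctsk, cathepsin K, fell by 0.51 (limma adjusted p = 0.00138). Alpl, alkaline phosphatase, was higher by 1.92, or by 1.27 with values raised to the floor, and was dim in mucosa. It passed the filter only through the peri-implant arrays, so no call is given for it. Acp5, the brightest of them, which makes up most of the bone sums, stood at 11.70 in peri-implant tissue against 11.68 in mucosa. Bglap, osteocalcin, which was not tested, stood at 6.96 in peri-implant tissue against 2.72, which is dim, in mucosa. These bone markers are named with their values in view. Most skeletal muscle and mast cell markers were dim in both tissues. The skeletal muscle sums were still lower, at 131 to 246 in peri-implant tissue against 309 to 380 in mucosa. The muscle actin Acta1, which was not tested, stood at 2.87, which is dim, in peri-implant tissue against 6.93 in mucosa. No marker of the keratinocyte, fibroblast, macrophage, neutrophil, T cell or endothelial list stood at 0 on any array. The part of these cell types in the differences of the 6 genes was not tested.

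**Figure D4:**
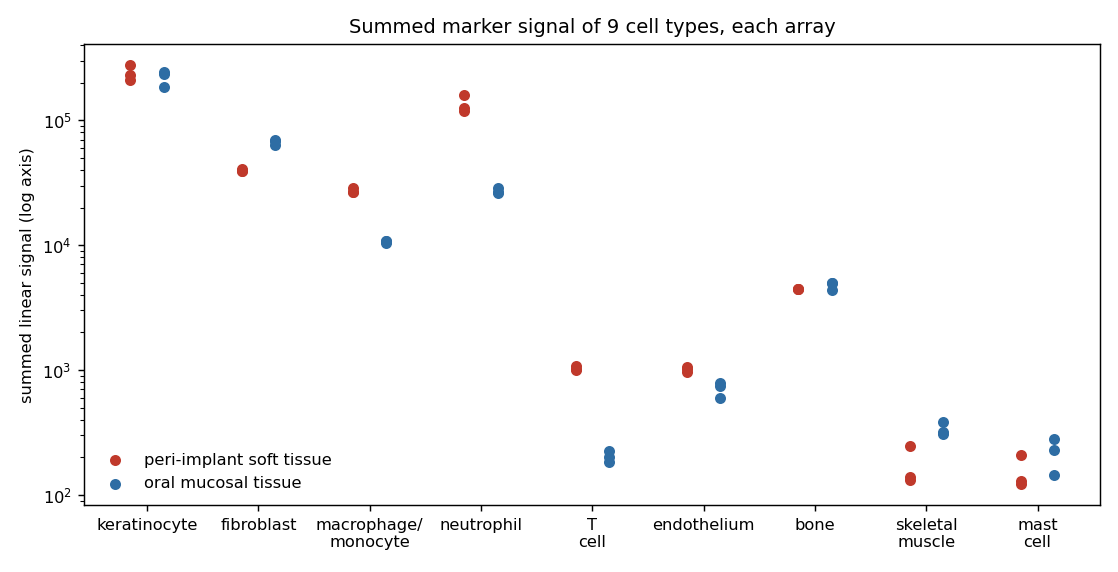
Summed linear signal of the markers of 9 cell types (vertical axis, log scale) on each array, with peri-implant soft tissue in red on the left of each pair and oral mucosal tissue in blue on the right. The fibroblast and skeletal muscle sums are lower and the macrophage, neutrophil, T cell and endothelial sums higher in peri-implant tissue, with no overlap. The keratinocyte, bone and mast cell sums overlap, and Acp5 makes up most of the bone sums.

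For each of the 6 genes the 3 genes with the most similar signal over the 6 arrays were looked up among 10584 others. These Pearson correlations are descriptions over 6 arrays and mostly mirror the difference between the tissues. Prss23 was most like Tnc, tenascin-C, Eppk1, epiplakin, and Pla2g4a, cytosolic phospholipase A2, with r of 0.9995, 0.9994 and 0.9991. Their differences were -2.69, -2.35 and -2.49. Htra1 was most like Slc16a9, Tnfrsf12a, the receptor of the cytokine TWEAK, and C13h1orf116, with r of 0.9986, 0.9981 and 0.9972. For Plat they were the transcription factor Cebpd, the keratin Krt7 and the matrix protein gene Abi3bp, with differences of 2.16, 2.12 and 2.00 and r of 0.9990, 0.9990 and 0.9989. St14 was closest to Arhgap45, Palld and Id3, with r of 0.9969, 0.9967 and 0.9962. Correlations above 0.99 were common for the genes that differed between tissues, with 149 genes for Plat, 105 for Prss23, 49 for Htra1 and 21 for St14, against 1 for Plau and 2 for Plaur. Plau was closest to Abtb2, Ndrg2 and Lima1, and Plaur to Tcf20, Ercc6 and Zbed3, and the groups overlapped for all 6 of these.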

How the data were processed

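Total RNA was amplified and labelled with biotin by an Affymetrix 3' IVT kit, per the labels' protocols, with 1 array per sample. The deposited values are log2 signals that had been scaled per array. That reading comes from the values: in linear units every one of the 6 arrays had the same trimmed mean, 500.2, after removal of 2% at either end. The scaling software is not given in the sources used here. Array medians were 6.62 to 6.78. The dim floor of 5.90 is the 40th percentile of all single values, exceeded by 58.3% to 62.4% of the signals of each array. The number of arrays limits the precision.

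No further normalization was applied. Of 31099 probe sets, 57 controls were left out, and 18625 with a mean above the 40th percentile (5.68) were tested. Symbols came from the array's annotation, which gave 1 symbol for 20826 probe sets, several for 436 and none for 9780. Of the 20826, 20758 matched the rat GRCr8 gene table by gene number. Tests, all two-sided, used R 4.3.3 and limma 3.58.1, with lmFit, eBayes and its variance trend, and Benjamini-Hochberg adjustment over all 18625 and a threshold of 0.05. Every adjusted p-value given is from that fit or a named alternative.

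The 6 genes and the 4 lists were chosen with earlier results of these data known. Named were the 6 genes, up to 4 further genes per list with the largest difference among those that passed and whose groups did not overlap, 12 set partners, up to 2 markers per cell type and the 3 most similar genes of each. Further markers are named with their values in view. The samples were not paired in the main fit, since the labels do not say that equal replicate numbers share a rat. Deviations of same-numbered arrays correlated at 0.01, -0.08 and 0.03, and those of other pairs at -0.06 to 0.05. With so few arrays these values cannot show whether the groups share rats. Alternatives changed the filter, the normalization, the variance trend, a floor on dim values, the probe sets of a gene, array weights, a replicate block and each array in turn.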

Additional observations from a re-analysis of the deposited data

How the results depend on the processing

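All 6 genes kept their direction in each of 15 alternatives, though some of these could not change it. The filter settings, the variance trend and the replicate block leave a difference of means as it is. The floor leaves these genes as they are, since all signals of their main probe sets lay above it. No direction is read for Plau and Plaur, whose groups overlapped. The difference of Prss23 ran from -4.08 to -3.93, Htra1 from -1.64 to -1.46, Plat from 2.38 to 2.49, St14 from 0.56 to 0.68, Plau from -0.12 to -0.04 and Plaur from 0.03 to 0.31. The count of the 6 with groups that did not overlap was 4 to 5 when single arrays were left out, with Plaur added without mucosal array 2 and Plau without mucosal array 3. Of all probe sets 4188 passed, and 2864 to 4696 over the alternatives. The plasminogen system count of 9 became 6 to 10, the membrane-anchored protease count of 5 became 5 to 6, and the substrate count of 15 became 11 to 16. With the replicate block 4076 probe sets passed and the list counts were 9, 5, 1 and 14. In the list that holds Htra1 and Prss23 the 1 other gene that passed, Masp1, was lost with the mean of all probe sets of a gene. There 0 of 10 passed in limma and 0 had an unadjusted p under 0.05. Krt13 differed by 0.19 in place of -0.0038 under quantile normalization, where it passed, and the cause was not tested. Over 110 other genes, 1569 of 1625 values kept their side of the threshold, 1539 of them with the same sign. The other 30, in 14 genes, had the opposite sign and passed in neither fit. Of the rest 47 lost the call, 8 gained it and 1 reversed. The planned pseudocount was not run because the values are on a log2 scale.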

Other observations

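Below the filter, 22 of the 75 list genes other than the 6 had no test. Among them were the fibrinogen chain Fga, at 0.22 ± 0.33 in peri-implant tissue against 3.80 ± 0.78 in mucosa, the plasmin inhibitor Serpinf2, at 2.60 ± 1.24 in peri-implant tissue against 4.75 ± 2.14 in mucosa, and hepsin (Hpn), at 5.25 ± 0.76 in peri-implant tissue against 4.26 ± 0.74 in mucosa. All of these means lay under the dim floor, and raised to it the 3 differences became 0.00, -0.06 and 0.08. The broad protease inhibitor A2m stood at 6.15 ± 0.42 in peri-implant tissue and was dim in mucosa, at 4.69 ± 1.33. Its difference of 1.46 became 0.32 with the floor.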
